A study of Mus musculus with 9 samples.

Results

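Macrophages of the mouse peritoneal wall that carry a green reporter for the fractalkine receptor gene Cx3cr1 (CX3CR1-GFP cells) were compared with macrophages that carry neither that reporter nor a red reporter for the chemokine receptor gene Ccr2 (double-negative cells). Each population had 3 libraries, so the comparison uses 6 of the 9 libraries of the series, taken by the populations that the deposited table's column headings give. The other 3 libraries come from CCR2-RFP cells and are given beside results where they help to read them. Every cell came from F1 mice of the genotype Cx3cr1gfp/+ Ccr2rfp/+, so all groups have GFP in place of 1 Cx3cr1 allele and RFP in place of 1 Ccr2 allele, and 1 functional copy of each gene. The sources used here give neither age nor sex. All mice received 50 µg of fluorescent dextran into a vein on the day before, were perfused, and had the superficial layers of the wall digested with Liberase for 20 minutes in a buffer that held a caspase inhibitor. From CD11b-positive, Ly6G-negative cells, double-negative cells were sorted as dextran-positive and negative for MHC class II and both reporters, and made up 85 to 90% of that gate. CX3CR1-GFP cells were MHC class II-positive, GFP-positive and RFP-negative, 0.5 to 1.5% of the gate. CCR2-RFP cells were MHC class II-positive, RFP-positive and GFP-negative, 10 to 15% of the gate. The labels call both compared populations sessile resident macrophages and the CCR2-RFP cells migratory monocytes. The comparison therefore changes the GFP reporter and the MHC class II gate together, and dextran uptake is stated for the double-negative gate alone, so the parts of these 3 criteria cannot be told apart.

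Resident macrophages line connective tissue, take up debris and dying cells through scavenger and lectin receptors, and make complement, chemokines and growth factors. Across many tissues they include cells low in MHC class II that express Lyve1, Timd4 and Folr2, often found near vessels, and cells high in MHC class II, some of which express Cx3cr1 and lie near nerves or epithelia. CX3CR1 binds the membrane-anchored chemokine CX3CL1. MHC class II molecules present peptides from engulfed proteins to CD4 T cells, after the invariant chain CD74 has guided them to endosomes and H2-DM has helped to load them.

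Values are TPM per gene symbol, a length-corrected share of the transcripts of a library, in the order sort 1, 2A and 2B throughout. Fold changes and standard errors (SE) are differences of mean log2(TPM + 1), CX3CR1-GFP minus double-negative unless stated, from limma fitted to all 9 libraries, with p-values adjusted over all 10136 genes tested. A gene is called, or said to have risen or fallen, where that adjusted p is below 0.05. Read counts cannot be had from TPM, so depth is unknown and the 3 libraries per group set the precision. The listed TPM summed to 324050 to 357087 in double-negative and 278579 to 301604 in CX3CR1-GFP libraries, and the Siglece row alone made up 31.72 to 34.69% and 21.92 to 29.15% of that sum. Symbols at 1 TPM or more numbered 9028 to 9146 and 9225 to 9534.

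The labels were checked first. For 6 of the 9 samples the description field swaps the 2 reporter-positive populations, while the other label fields and the column heading of each sample give 1 and the same population, and Cx3cr1 and Ccr2 levels are given below under the headings. Both compared populations expressed the macrophage genes Csf1r, the receptor for the survival factor CSF1, at 218, 229 and 174 TPM in double-negative libraries and 202, 212 and 198 TPM in CX3CR1-GFP libraries, and Adgre1, which encodes F4/80, at 74.4, 83.4 and 77.5 and 72.3, 76.1 and 78.9 TPM. The libraries of the 2 populations overlapped for both genes. The CX3CR1-GFP and CCR2-RFP libraries of sort 2A stood apart in skeletal muscle and adipocyte markers, and the double-negative one much less. Summed fibroblast markers were instead lowest in sort 2A in each population. They were 13.9 TPM there in double-negative, 52.0 TPM in CX3CR1-GFP and 15.5 TPM in CCR2-RFP cells. The 10 skeletal muscle markers summed to 297 to 415 TPM in double-negative libraries and to 301, 2043 and 248 TPM in CX3CR1-GFP libraries, the second of these from sort 2A. The CCR2-RFP library of sort 2A also held 1188 TPM of them, against 49.1 and 44.1 TPM in the other 2. All 10 muscle markers were tested and had higher mean log2 levels in CX3CR1-GFP cells, none was called, and the median difference was 0.61. The 8 adipocyte markers summed to 9.95 to 15.6 TPM in double-negative libraries and to 9.25, 80.0 and 16.6 TPM in CX3CR1-GFP libraries. Each result below that ends without the 3 sort 2A libraries is named as such.

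Markers of other cells the gate could hold were low or overlapped between the populations. Summed levels in double-negative and CX3CR1-GFP libraries were 13.9 to 119 and 52.0 to 132 TPM for 10 fibroblast markers, 73.1 to 89.4 and 43.9 to 103 TPM for 9 Schwann cell markers, and 2.02 to 7.65 and 4.40 to 9.67 TPM for 10 endothelial markers. For 10 mesothelial markers they were 1.92 to 3.20 and 1.09 to 8.81 TPM. Among blood cells, 11 neutrophil markers summed to 7.20 to 17.9 and 3.33 to 24.6 TPM with Mpo and Elane listed at 0 in all 6 libraries, and 7 eosinophil markers to 0.29 to 1.51 and 0.12 to 0.49 TPM with Prg2, Ear1 and Ear6 listed at 0. The 8 mast cell markers summed to 1.36 to 7.01 and 0.42 to 4.70 TPM, and 14 T and NK cell markers to 3.23 to 4.49 and 3.33 to 14.1 TPM. The 8 B cell markers summed to 48.2 to 70.8 and 42.3 to 58.0 TPM, and 5 of them were below 1 TPM in all 6 libraries. Of the 11 marker lists, 1 member was called, Cd79b, a signalling chain of the B cell receptor. It was 0.0792, 0.216 and 0.597 TPM in double-negative libraries and 3.54, 2.60 and 1.44 TPM in CX3CR1-GFP libraries (log2 fold change 1.42, adjusted p = 0.0260). Cd79b was below 1 TPM in every library outside CX3CR1-GFP and so passed the filter only through the population in which it is high. Cd79b was no longer called without double-negative 1 or 2A (adjusted p = 0.0982 to 0.117). Cd79b was not called with the sort label as a replicate block (adjusted p = 0.0526). The part of these cells' RNA in the results below was not tested. In these bulk samples fewer cells of a type and less RNA per cell cannot be told apart. Adjusted p for Cd79b was 0.148 with no filter on low values.

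**Figure D1:**
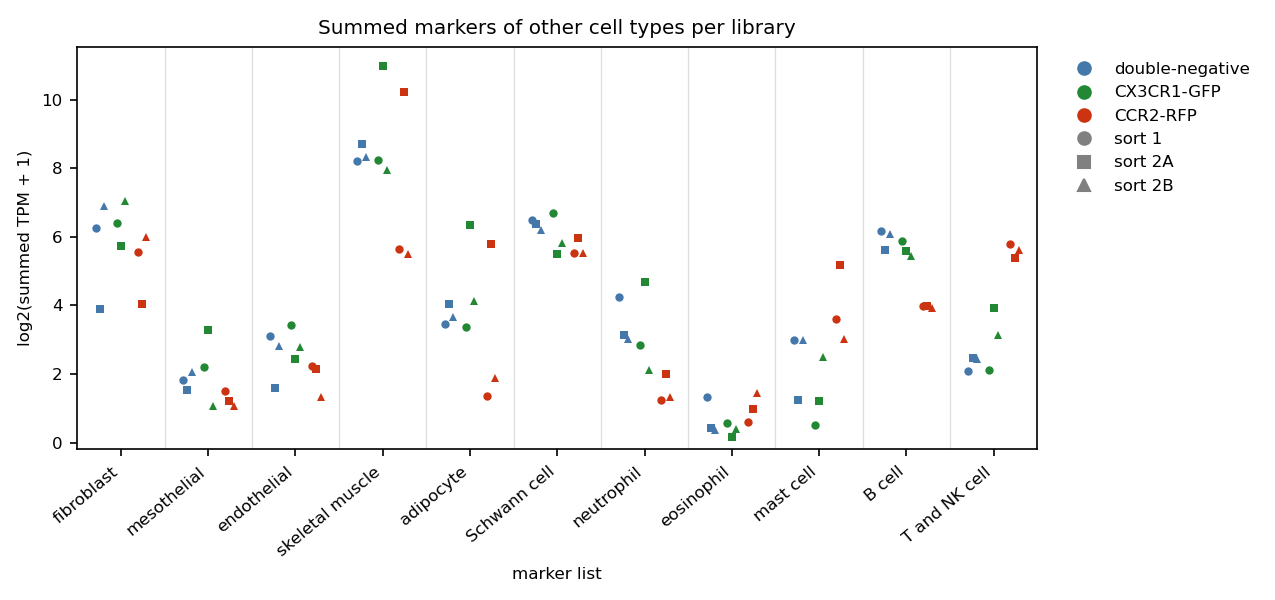
Summed level of each list of other cell types per library, as log2(summed TPM + 1) on the vertical axis and lists on the horizontal axis, where colour gives the population and marker shape the sort. The CX3CR1-GFP and CCR2-RFP libraries of sort 2A stand at 2043 and 1188 TPM of skeletal muscle markers, above the other 7 libraries.

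CX3CR1-GFP cells differed from double-negative cells in 281 of the 10136 genes tested (2.77%), 118 higher (1.16%) and 163 lower (1.61%). The counts of called list members given below are to be read beside these shares. For the same table, CX3CR1-GFP against CCR2-RFP cells gave 2666 called genes (26.3%), and CCR2-RFP against double-negative cells 2513 (24.8%). Of the 281 genes, 99 of the higher and 109 of the lower ones differed by at least 1 on the log2 scale, and 22 and 23 by at least 2. The median size was 1.41 for the higher and 1.17 for the lower genes, and the median over all genes tested was -0.03. In all 281 the 3 libraries of one population lay outside the range of the other, as they did for 2136 of all genes tested (21.1%). Of the 118 higher genes, 11 were below 1 TPM in every library outside CX3CR1-GFP, and of the 163 lower genes 9 were below 1 TPM in every library outside double-negative, so these passed the filter on low values only through the group in which they are high. CX3CR1-GFP 2A was the highest CX3CR1-GFP library for 75 of the 118 higher genes (63.56%), against 40.38% of all genes tested, and the lowest for 79 of the 163 lower genes (48.47%, against 33.42%). Without the 3 sort 2A libraries 88 genes were called, 33 higher and 55 lower, and without CX3CR1-GFP 2A alone 165 were called, 68 and 97. Without double-negative 1, 2A or 2B the counts were 129, 126 and 138. After rescaling without Siglece, mitochondrial and ribosomal genes the count was again 281, but split into 155 higher (55.2%) and 126 lower, against 42.0% higher in the TPM as deposited. The medians of the microglia, dendritic cell and chemoattractant receptor lists given below lie near 0 and change sign under that rescaling.

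**Figure D2:**
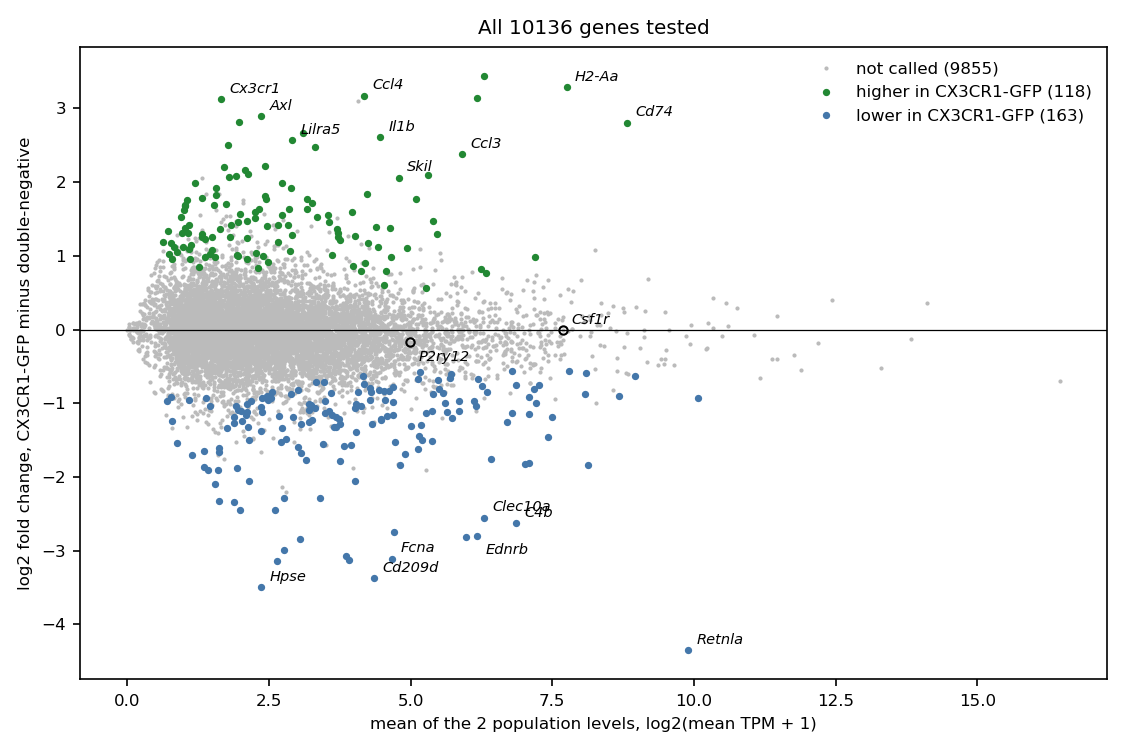
Each of the 10136 genes tested, with the mean of the 2 population levels as log2(mean TPM + 1) on the horizontal axis and the log2 fold change, CX3CR1-GFP minus double-negative, on the vertical axis. Green points are the 118 genes called higher, blue points the 163 called lower, and open circles mark P2ry12 and Csf1r, which were not called and lie close to 0.

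The genes of the sort gate followed the column headings. Since these genes chose the cells, their levels are a check and not a finding. Cx3cr1 (chromosome 9, 119901616 to 120069879, mm10) was listed at 0 in all 3 double-negative and all 3 CCR2-RFP libraries and at 6.51, 16.4 and 4.13 TPM in CX3CR1-GFP libraries. Ccr2 was 2.12, 1.65 and 4.62 TPM in double-negative libraries, 4.29, 5.03 and 6.68 TPM in CX3CR1-GFP and 95.4, 111 and 115 TPM in CCR2-RFP libraries, and did not pass between the first 2 (adjusted p = 0.182). Without double-negative 2B it did, at adjusted p = 0.0373. Itgam, which encodes CD11b, was 17.9, 19.5 and 20.4 and 11.8, 16.1 and 16.1 TPM (adjusted p = 0.305). Gm49368 covers 68.7% of the exon bases of Itgam on the same strand, so Itgam reads may be split with it. The MHC class II chain genes H2-Aa, H2-Ab1 and H2-Eb1 lie close together on chromosome 17, and all were called. H2-Aa (chromosome 17, 34282744 to 34287823) was 44.3, 68.7 and 91.7 TPM in double-negative libraries, 467, 894 and 658 TPM in CX3CR1-GFP libraries and 1682, 1937 and 1904 TPM in CCR2-RFP libraries. The double-negative libraries, sorted as MHC class II-negative, thus still listed H2-Aa, and the CX3CR1-GFP mean was 36.5% of the CCR2-RFP mean. H2-Ab1 was 15.7, 25.9 and 27.4 and 144, 295 and 204 TPM, and H2-Eb1 14.2, 25.5 and 28.8 and 169, 333 and 270.4 TPM, with log2 fold changes of 3.29, 3.14 and 3.44 for the 3 chains. The gate list of 7 genes had 6 tested, 4 of them higher.

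Of 13 genes tested that load and control MHC class II, 4 rose with the chains and none fell, and 9 were not called (median log2 difference 0.73, against -0.03 over all genes). Cd74 was 137, 209 and 159 TPM in double-negative libraries, 917, 1550.0 and 1114 TPM in CX3CR1-GFP and 2826, 3448 and 3015 TPM in CCR2-RFP libraries, 7.10 times the double-negative mean (log2 fold change 2.81, SE 0.21, adjusted p = 0.000340). The order of the 3 populations was the same in every sort. H2-DMa, the alpha chain of the peptide-loading molecule, was 8.97, 10.4 and 7.42 and 33.1, 36.2 and 33.7 TPM (1.84, SE 0.15, adjusted p = 0.000340), and was 167, 150.2 and 178 TPM in CCR2-RFP libraries (CX3CR1-GFP minus CCR2-RFP -2.23, adjusted p = 6.71e-06). Of its exon bases 10.4% overlap Brd2 on the other strand, which averaged 32.7 TPM, and the sources used here do not give the strand of counting. H2-DMb1 was 4.81, 6.04 and 6.20 and 12, 22.5 and 23.1 TPM (1.55, adjusted p = 0.00579). Ctss and Ifi30, a protease and a reductase of endosomes that act on invariant chain and antigen, were not called, at -0.19 and -0.49 on the log2 scale. Cd83, which keeps MHC class II at the surface by opposing its ubiquitination, departed from the order of Cd74. It was 116, 93.5 and 99.9 TPM in double-negative libraries, 174, 229 and 214 TPM in CX3CR1-GFP and 85.0, 89.4 and 86.8 TPM in CCR2-RFP libraries, highest in CX3CR1-GFP cells against both others (0.99, adjusted p = 0.00521; against CCR2-RFP 1.22, adjusted p = 0.000162). Adjusted p for Cd83 and H2-DMb1 was 0.0933 and 0.0744 without the 3 sort 2A libraries. Adjusted p for H2-DMb1 was 0.0656 with no filter on low values.

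MHC class II promoters hold a conserved module with an inverted CCAAT element, the Y box, bound by NF-Y. In the 250 bases before the start of H2-Aa and of H2-Eb1, as the RefSeq promoter table (GRCm38.p6) gives them, the longest run of bases that both share on the gene's strand was 8 bases long, CTGATTGG. On either strand, that run stood before 6.07% of the 7609 tested genes with an entry. The windows are shown because they belong to chain genes of the protein the gate reads, with the shared run in capitals. The H2-Aa window lies at chr17:34287842-34287899 on the minus strand, and the H2-Eb1 window at chr17:34305780-34305837 on the plus strand.
H2-Aa: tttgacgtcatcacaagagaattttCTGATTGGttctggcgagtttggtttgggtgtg
H2-Eb1: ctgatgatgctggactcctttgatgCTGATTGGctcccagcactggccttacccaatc
A match describes these letters only.

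Inflammatory chemokine and cytokine genes were among the largest rises. Ccl4 and Ccl3, neighbouring genes on chromosome 11 whose products attract monocytes and T cells, rose together. Ccl4 (chromosome 11, 83662584 to 83664683) was 4.16, 6.27 and 2.96 TPM in double-negative libraries and 38.4, 116 and 22.7 TPM in CX3CR1-GFP libraries (log2 fold change 3.17, SE 0.48, adjusted p = 0.00646). Every CX3CR1-GFP library lay above every double-negative one, and CX3CR1-GFP 2A was the highest by far. Ccl3 was 29.3, 28.7 and 15.7 and 146, 209.5 and 66.8 TPM (2.38, SE 0.39, adjusted p = 0.0111), and was 24.5, 14.2 and 19.3 TPM in CCR2-RFP libraries (CX3CR1-GFP minus CCR2-RFP 2.69, adjusted p = 0.000669). Cxcl2, a neutrophil attractant, was 20.4, 18.2 and 14.2 and 75.8, 128 and 48.6 TPM (2.10, adjusted p = 0.00391), with CCR2-RFP libraries at 104, 111 and 121 TPM. Cxcl10, an attractant of CXCR3-bearing T cells, was 0.803, 0.462 and 1.25 and 4.04, 6.87 and 4.19 TPM (1.71, adjusted p = 0.0178). Il1b, the gene of the fever-inducing cytokine IL-1 beta, was 5.31, 9.49 and 7.78 TPM, 35.0, 98.5 and 35.8 TPM and, in CCR2-RFP libraries, 191, 265 and 225 TPM (2.61, SE 0.36, adjusted p = 0.00391). CX3CR1-GFP cells thus stood between the other populations for Il1b. Tnf was 4.81, 3.28 and 3.11 and 10.2, 15.2 and 7.19 TPM (1.29, adjusted p = 0.0243). Nlrp3, the sensor of the inflammasome that leads to IL-1 beta release, was 0.716, 1.38 and 1.04 and 5.47, 13.6 and 6.07 TPM (2.11, adjusted p = 0.00562), and was 2.06, 3.28 and 2.57 TPM in CCR2-RFP libraries (CX3CR1-GFP minus CCR2-RFP 1.28, adjusted p = 0.0122). Ccl3 was no longer called without double-negative 2B (adjusted p = 0.0520). Cxcl10 was no longer called without double-negative 1 or 2A, or CX3CR1-GFP 2A (adjusted p = 0.0591 to 0.0764). Tnf was no longer called without double-negative 2A or 2B, or CX3CR1-GFP 1 or 2A (adjusted p = 0.0582 to 0.108). Adjusted p for Ccl3, Cxcl10 and Tnf was 0.0600, 0.126 and 0.188 without the 3 sort 2A libraries. Adjusted p for Ccl4, Ccl3, Cxcl2, Cxcl10, Il1b, Tnf and Nlrp3 was 0.0992, 0.125, 0.0672, 0.125, 0.0725, 0.129 and 0.0656 with no filter on low values.

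As lists these genes split. Of 18 chemokine ligand genes tested, 4 rose (Ccl3, Ccl4, Cxcl2 and Cxcl10) and 4 fell, with a median log2 difference of -0.14. Of 27 cytokine and receptor genes, 3 rose (Il1b, Tnf and Tgfbr1) and 1 fell, Tnfrsf1a, the main TNF receptor, at 57.0, 65.9 and 55.8 against 20.4, 27.7 and 35.0 TPM (-1.11, adjusted p = 0.0181). NF-kB is the transcription factor family that drives many such genes, and its inhibitors are among its own targets. Of 16 NF-kB subunit and feedback genes, 2 rose and none fell (median 0.33). Tnfaip3, which encodes the inhibitor A20, was 10.3, 9.17 and 8.56 and 20.8, 31.9 and 20.3 TPM (1.27, adjusted p = 0.00535). Nfkbia, the inhibitor that holds NF-kB in the cytoplasm, was 66.2, 45.9 and 56.1 and 105, 115 and 80.2 TPM (0.82, adjusted p = 0.0410). Of 20 Toll-like receptor and adaptor genes 1 was called (5.0%, against 2.77% of all genes tested). It was Tlr13, a sensor of bacterial ribosomal RNA, which rose, at 3.98, 3.51 and 4.79 against 9.88, 10.7 and 8.29 TPM (1.06, adjusted p = 0.0181). Tlr13 was 0.971, 1.02 and 0.605 TPM in CCR2-RFP libraries (CX3CR1-GFP minus CCR2-RFP 2.51, adjusted p = 1.54e-05). Of 29 immediate-early and heat shock genes, which tissue digestion is known to induce, none was called. Mean log2 levels were higher in CX3CR1-GFP cells for 24 of these genes and lower for 5 (median 0.28, against -0.03 over all genes). Fos among them was 1355, 1364 and 1263 and 1950.0, 1762 and 1433 TPM (adjusted p = 0.395). The part of these genes in the rise of the chemokines was not tested. Tnfrsf1a was no longer called without double-negative 1, 2A or 2B, or CX3CR1-GFP 2A (adjusted p = 0.0528 to 0.0806). Tlr13 was no longer called without double-negative 1 or 2A, or CX3CR1-GFP 1 or 2A (adjusted p = 0.0587 to 0.0867). Nfkbia was no longer called without double-negative 1, 2A or 2B, CX3CR1-GFP 1 or 2A, or CCR2-RFP 1, 2A or 2B (adjusted p = 0.0505 to 0.143). Nfkbia was not called with the sort label as a replicate block (adjusted p = 0.0614). Adjusted p for Tnfrsf1a, Tlr13, Nfkbia and Tnfaip3 was 0.128, 0.191, 0.258 and 0.0549 without the 3 sort 2A libraries. Adjusted p for Tnfrsf1a and Nfkbia was 0.115 and 0.161 with no filter on low values.

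**Figure D3:**
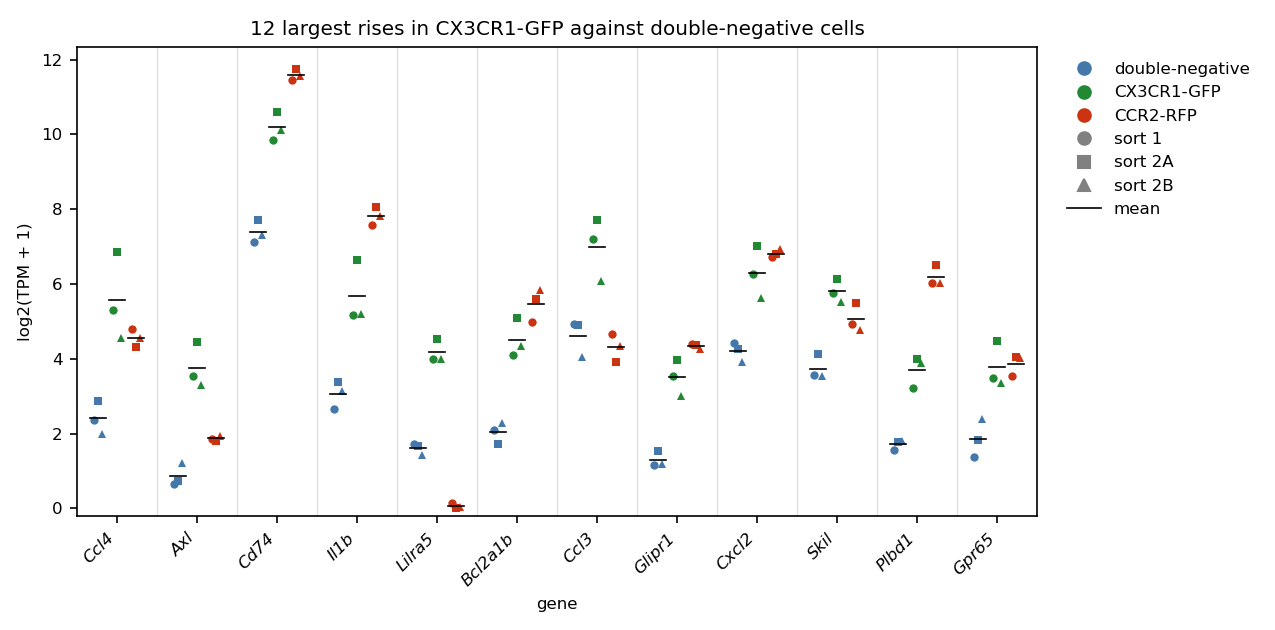
The 12 genes of the naming rule with the largest rise in CX3CR1-GFP against double-negative cells, as log2(TPM + 1) per library on the vertical axis, where colour gives the population, marker shape the sort and the bar a mean. CX3CR1-GFP libraries lie above all double-negative libraries for each gene, as the naming rule requires. Lilra5 is near 0 in CCR2-RFP libraries, and Cd74 and Il1b are higher still in those.

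Several membrane receptor genes rose against double-negative cells and were also higher than in CCR2-RFP cells, the other MHC class II-positive population. Lilra5 (chromosome 7, 4237754 to 4243463), an activating receptor of the leukocyte immunoglobulin-like family, was 2.31, 2.17 and 1.69 TPM in double-negative libraries, 14.9, 22.3 and 15.0 TPM in CX3CR1-GFP and 0.111, 0 and 0.0305 TPM in CCR2-RFP libraries. The fold change was 2.57 (SE 0.21, adjusted p = 0.000340) against double-negative and 4.11 (adjusted p = 2.57e-06) against CCR2-RFP cells. Axl (chromosome 7, 25757273 to 25788705), a receptor tyrosine kinase that recognises apoptotic cells through the bridging protein Gas6, was 0.566, 0.670 and 1.31 TPM, 10.7, 20.8 and 8.78 TPM and, in CCR2-RFP libraries, 2.62, 2.50 and 2.86 TPM (2.90, SE 0.29, adjusted p = 0.000980, and 1.89, adjusted p = 0.000958, against CCR2-RFP). Its relative Mertk did not pass, at 18.1, 18.6 and 18.7 and 14.9, 14.1 and 16.1 TPM (adjusted p = 0.495). Itgb5, the beta chain of the vitronectin receptor alpha v beta 5, was 1.87, 1.85 and 2.07 and 7.90, 11.8 and 7.87 TPM (1.78, adjusted p = 0.00218), and was 0.212, 0.404 and 0.0932 TPM in CCR2-RFP libraries (CX3CR1-GFP minus CCR2-RFP 3.03, adjusted p = 8.32e-06). Its partner chain Itgav was 3.71, 2.92 and 2.01 and 10.1, 10.6 and 7.31 TPM (1.42, adjusted p = 0.00990), with CCR2-RFP libraries at 10.6, 14.9 and 10.5 TPM and no difference called from those (adjusted p = 0.329). So both chains of that receptor rose, and the beta chain alone was called against CCR2-RFP cells. Cd93, a C-type lectin-like receptor, was 16.1, 25.1 and 12.2 and 61.4, 55.2 and 65.5 TPM (1.77, adjusted p = 0.0211), and was 3.97, 0.968 and 1.53 TPM in CCR2-RFP libraries (CX3CR1-GFP minus CCR2-RFP 4.40, adjusted p = 1.4e-05). Lair1, an inhibitory collagen receptor, was 10.7, 13.4 and 10.8 and 30.1, 26.0 and 26.6 TPM (1.18, adjusted p = 0.0119), and was 1.64, 0.916 and 2.01 TPM in CCR2-RFP libraries (CX3CR1-GFP minus CCR2-RFP 3.52, adjusted p = 2.92e-06). Cd93 was no longer called without double-negative 1 or 2B, or CX3CR1-GFP 1, 2A or 2B (adjusted p = 0.0549 to 0.0988). Lair1 was no longer called without double-negative 1 or 2B (adjusted p = 0.0577 to 0.0642). Adjusted p for Itgav was 0.0925 without the 3 sort 2A libraries. Adjusted p for Itgav, Cd93 and Lair1 was 0.0672, 0.161 and 0.0575 with no filter on low values.

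Single genes of matrix turnover and of TGF-beta signalling rose, while no list of TGF-beta genes was tested and Tgfb1 and Tgfbr2, its ligand and type II receptor, were not called (-0.06 and -0.38). Mmp13, a collagenase, was 0.240, 0.542 and 0.401 TPM in double-negative libraries and 5.04, 17.6 and 7.24 TPM in CX3CR1-GFP libraries (2.81, SE 0.35, adjusted p = 0.00264), and was 0.0409, 0 and 0.114 TPM in CCR2-RFP libraries (CX3CR1-GFP minus CCR2-RFP 3.21, adjusted p = 0.000107). Mmp13 was below 1 TPM in every library outside CX3CR1-GFP and so passed the filter only through the population in which it is high. It had adjusted p = 0.0431 with no filter on low values. Col14a1, a fibril-associated collagen gene, was 0.958, 0.767 and 1.24 and 9.97, 8.23 and 5.91 TPM (2.17, adjusted p = 0.00129). Col3a1, a main fibroblast collagen, was 25.1, 1.00 and 49.9 and 16.6, 10.7 and 49.3 TPM and did not pass (adjusted p = 0.848). The part of fibroblast RNA in the Col14a1 level was not tested. Tgfbr1, the type I TGF-beta receptor, was 6.20, 3.41 and 3.13 and 14.9, 23.6 and 10.9 TPM (1.72, adjusted p = 0.0179), and was 2.21, 3.08 and 1.55 TPM in CCR2-RFP libraries (CX3CR1-GFP minus CCR2-RFP 2.38, adjusted p = 0.000361). Skil, which encodes the SMAD corepressor SnoN, was 10.8, 16.5 and 10.6 and 53.0, 69.6 and 44.6 TPM (2.06, adjusted p = 0.00218). Pmepa1, a TGF-beta-induced gene whose product dampens that pathway, was 0.696, 0.570 and 1.17 and 9.35, 7.39 and 4.06 TPM (2.08, adjusted p = 0.00346), and was 0.312, 0.188 and 0.133 TPM in CCR2-RFP libraries (CX3CR1-GFP minus CCR2-RFP 2.65, adjusted p = 7.12e-05). Of 30 matrix, protease and growth factor genes tested 3 rose (Mmp13, Pdgfa and Pdgfb) and 5 fell (median -0.07). None was called without the 3 sort 2A libraries, a fit in which Mmp13 did not pass the filter and was not tested. The fallen ones included Timp2, an inhibitor of metalloproteinases, at 194, 204 and 197 against 119, 108 and 126 TPM (-0.75, adjusted p = 0.00764). Tgfbr1 was no longer called without double-negative 2A or 2B, or CX3CR1-GFP 1 or 2A (adjusted p = 0.0501 to 0.0852). Adjusted p for Tgfbr1, Pmepa1 and Timp2 was 0.142, 0.0656 and 0.121 without the 3 sort 2A libraries. Adjusted p for Tgfbr1 was 0.130 with no filter on low values.

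Olfml3, a secreted glycoprotein gene known as a marker of brain microglia, rose as well. It was 0.266, 0.101 and 0 TPM in double-negative libraries and 5.95, 2.89 and 2.22 TPM in CX3CR1-GFP libraries (1.99, SE 0.27, adjusted p = 0.00391) and was listed at 0 in all CCR2-RFP libraries. Olfml3 too passed the filter only through CX3CR1-GFP libraries, and had adjusted p = 0.0487 with no filter. Gpr34, a lysophosphatidylserine receptor gene, was 40.5, 49.6 and 52.2 and 70.5, 73.1 and 69.5 TPM, with no overlap between the libraries but an adjusted p of 0.289. Siglech was 28.4, 43.9 and 23.1 and 37.8, 43.1 and 24.6 TPM (adjusted p = 0.876), and Tmem119 and Sall1 were too low to test. In all, 3 of 23 microglia and CX3CR1 macrophage genes tested rose, Olfml3 and Tgfbr1 among them, and 1 fell, Ctsd (median -0.01, near that of all genes).

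The other named rises covered several functions. Bcl2a1b, a survival gene of the BCL2 family whose reads may be shared with its near-identical copies, was 3.27, 2.29 and 3.90 and 16.3, 33.3 and 19.2 TPM (2.48, adjusted p = 0.00218). Glipr1 was 1.22, 1.88 and 1.27 and 10.6, 14.5 and 7.10 TPM (2.22, adjusted p = 0.00116), with 22.8% of its exon bases under Krr1 of the other strand. Plbd1, a phospholipase B-like gene, was 1.98, 2.43 and 2.46 and 8.29, 14.8 and 13.9 TPM (1.98, adjusted p = 0.00174). For these 3 genes CCR2-RFP libraries were higher than CX3CR1-GFP ones, at means that put CX3CR1-GFP at 51.1, 55.5 and 17.0% of the CCR2-RFP level. Gpr65, a proton-sensing receptor gene, was 1.60, 2.55 and 4.24 and 10.2, 21.3 and 9.31 TPM (1.91, adjusted p = 0.0148). Ildr2, an immunoglobulin-like domain gene, was 2.41, 1.75 and 1.35 and 8.34, 8.75 and 6.22 TPM (1.63, adjusted p = 0.00346), and was 0.138, 0.0904 and 0.251 TPM in CCR2-RFP libraries (CX3CR1-GFP minus CCR2-RFP 2.91, adjusted p = 1.15e-05). Gpr65 was no longer called without double-negative 1 or 2A (adjusted p = 0.0607 to 0.0677). Adjusted p for Gpr65 and Ildr2 was 0.112 and 0.0656 without the 3 sort 2A libraries. Adjusted p for Gpr65 was 0.127 with no filter on low values.

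Retnla (chromosome 16, 48842551 to 48844461) had the largest fall. This secreted protein, also called RELM-alpha, is known as a marker of alternatively activated and of cavity macrophages. It was 3740.0, 4723 and 4432 TPM in double-negative libraries and 200.5, 167 and 269 TPM in CX3CR1-GFP libraries, a mean 20.2 times lower (log2 fold change -4.35, SE 0.21, 95% interval -4.82 to -3.89, adjusted p = 1.25e-05). In CCR2-RFP libraries it was 12400.0, 10770.0 and 16040.0 TPM, so CX3CR1-GFP cells held 1.62% of the level of the other MHC class II-positive population. Of 12 alternative activation genes tested, 4 fell (Retnla, Clec10a, Ccl24 and Fcgr2b) and none rose (median -0.29). Clec10a, a galactose-binding lectin, was 166, 206 and 195 and 28.2, 29.3 and 36.9 TPM (-2.55, SE 0.21, adjusted p = 0.000340), with CCR2-RFP libraries at 40.1, 22.8 and 37.9 TPM. Mrc1 and Cd163, scavenger receptors of the same list, did not pass, at 349, 364 and 331 and 326, 324 and 258 TPM for Mrc1 (adjusted p = 0.505) and 158, 150.4 and 154 and 136, 118 and 139 TPM for Cd163 (adjusted p = 0.410). Of 15 cavity macrophage genes 1 was called (6.7%, against 2.77% of all genes tested), Retnla, which fell. The median of that list was -0.51, and Gata6, which defines cavity macrophages, was too low to test.

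Genes known from LYVE1-positive, MHC class II-low resident macrophages formed the largest group of falls. Of 23 tested, 13 fell and none rose, with a median log2 difference of -1.13 against -0.03 over all genes. The count was 9 without the 3 sort 2A libraries, 8 without CX3CR1-GFP 2A, and 5 to 15 over all alternatives, while the median stayed between -1.21 and -1.01. Cd209d, Cd209g, Cd209b and Cd209f, C-type lectins related to DC-SIGN that lie together on chromosome 8, all fell. Cd209d (chromosome 8, 3871824 to 3878555) was 47.9, 106 and 45.6 TPM in double-negative libraries and 3.73, 6.43 and 5.23 TPM in CX3CR1-GFP libraries (-3.37, SE 0.31, adjusted p = 0.000597). Cd209g was 13.7, 20.9 and 16.6 and 0.748, 2.31 and 0.420 TPM (-3.15), Cd209b 36.8, 57.6 and 34.5 and 2.77, 6.60 and 3.15 TPM (-3.12), and Cd209f 54.9, 79.9 and 61.3 and 9.23, 12.7 and 5.72 TPM (-2.74). Reads may be shared within this family, so the split between its members is uncertain. Cd209a, a further member also used as a dendritic cell marker, was 23.6, 58.5 and 19.6 and 5.30, 7.51 and 6.95 TPM (-2.05, adjusted p = 0.0134), and 79.2, 121 and 79.4 TPM in CCR2-RFP libraries. Fcna, a ficolin that binds sugars and starts complement, was 72.8, 65.7 and 81.7 and 9.67, 7.20 and 6.24 TPM (-3.11, SE 0.32, adjusted p = 0.00100). Vsig4, a receptor for complement fragments, was 10.2, 18.1 and 13.4 and 3.21, 1.70 and 1.34 TPM (-2.29, adjusted p = 0.00391). Adjusted p for Cd209f, Cd209a and Vsig4 was 0.0622, 0.132 and 0.0539 with no filter on low values.

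Of the genes that define this resident type, Timd4 and Folr2 fell and Lyve1 did not pass. Timd4, a phosphatidylserine receptor, was 26.1, 26.1 and 23.9 TPM in double-negative libraries, 11.5, 8.38 and 7.60 TPM in CX3CR1-GFP and 4.22, 1.22 and 3.31 TPM in CCR2-RFP libraries (-1.39, SE 0.29, adjusted p = 0.0340). Folr2, a folate receptor, was 265, 200.1 and 261 TPM, 79.2, 57.5 and 67.2 TPM and 45.7, 14 and 30.6 TPM in the same order (-1.82, SE 0.34, adjusted p = 0.0195). Both genes were higher in CX3CR1-GFP than in CCR2-RFP cells, by 1.45 (adjusted p = 0.00467) and 1.28 (adjusted p = 0.0190), so CX3CR1-GFP cells lay between the other 2 populations. Of the exon bases of Folr2, 63.1% overlap Gm10602 on the other strand. Lyve1, a hyaluronan receptor, was 895, 772 and 748 and 646, 401 and 865 TPM (-0.40, 95% interval -0.97 to 0.17, adjusted p = 0.514), and its libraries overlapped. Colec12, a collectin scavenger receptor, was 56.5, 56.5 and 54.0 and 28.0, 19.2 and 20.1 TPM (-1.29, adjusted p = 0.0175), and Ninj1, a membrane rupture protein gene, 152, 156 and 156 and 53.1, 48.1 and 36.4 TPM (-1.75, adjusted p = 0.00383). Fcgrt, the neonatal Fc receptor that recycles IgG and albumin, was 147, 155 and 176 and 68.5, 57.8 and 72.7 TPM (-1.25, adjusted p = 0.0349). Maf, a transcription factor of resident macrophages, was 167, 177 and 149.8 and 171, 185 and 146 TPM and did not pass (adjusted p = 0.969). Timd4 was no longer called without double-negative 1, 2A or 2B, or CX3CR1-GFP 2A or 2B (adjusted p = 0.0874 to 0.123). Folr2 was no longer called without double-negative 1, 2A or 2B, or CX3CR1-GFP 2A or 2B (adjusted p = 0.0520 to 0.0892). Colec12 was no longer called without double-negative 1, 2A or 2B, or CX3CR1-GFP 2A or 2B (adjusted p = 0.0520 to 0.0754). Fcgrt was no longer called without double-negative 1, 2A or 2B, CX3CR1-GFP 1, 2A or 2B, or CCR2-RFP 1 (adjusted p = 0.0550 to 0.141). Adjusted p for Timd4 and Colec12 was 0.0639 and 0.159 without the 3 sort 2A libraries. Adjusted p for Timd4, Folr2, Colec12, Ninj1 and Fcgrt was 0.180, 0.163, 0.113, 0.0541 and 0.201 with no filter on low values.

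**Figure D4:**
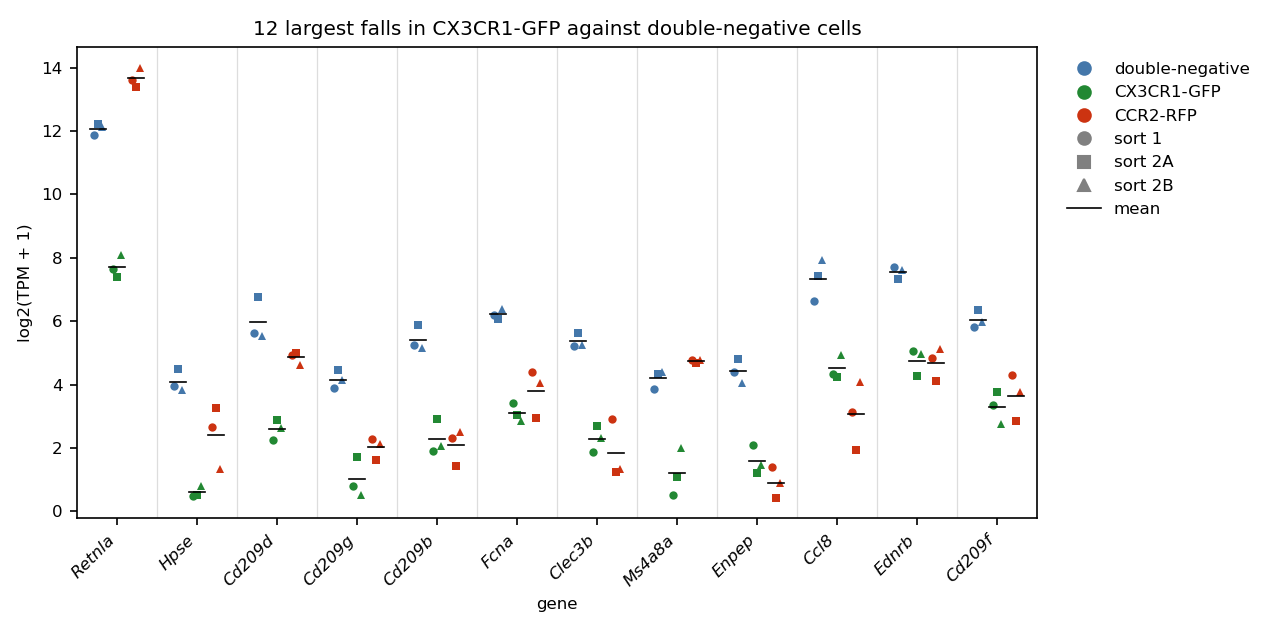
The 12 genes of the naming rule with the largest fall in CX3CR1-GFP against double-negative cells, as log2(TPM + 1) per library on the vertical axis, where colour gives the population, marker shape the sort and the bar a mean. CX3CR1-GFP libraries lie below all double-negative libraries for each gene, as the naming rule requires. Retnla, Cd209d and Ms4a8a are higher in CCR2-RFP than in CX3CR1-GFP libraries.

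Of 20 complement genes tested 8 fell and 1 rose (median -0.48). The rise was Cd93, given above with the membrane receptors. Among the falls was Itgb2, an integrin chain given below with the adhesion genes. C4b, a component of the classical and lectin pathways, was 236, 419.7 and 219.6 TPM in double-negative libraries and 41.1, 38.6 and 54.8 TPM in CX3CR1-GFP libraries, 6.51 times lower in the mean (-2.63, SE 0.27, adjusted p = 0.00100). Reads of C4b may be shared with its close copy C4a. C6, of the membrane attack complex, was 4.93, 9.36 and 8.10 and 0.705, 0.699 and 0.464 TPM (-2.35, adjusted p = 0.000961). Cfb and Cfp, factor B and properdin of the alternative pathway, were 4.77, 10.2 and 10.4 and 0.480, 0.682 and 0.798 TPM (-2.45, adjusted p = 0.00264) and 54.1, 61.5 and 55.0 and 15.0, 23.3 and 23.8 TPM (-1.44, adjusted p = 0.00391). C4b and Cfp were called in all 23 alternatives and Cfb in the 22 that tested it. C6 was below 1 TPM in every library outside double-negative, so it passed the filter only through the population in which it is high, and had adjusted p = 0.0146 with no filter. Gm20547 covers 79.5% of the exon bases of Cfb on the same strand, so Cfb reads may be split with it. The C1q chains, which recognise antibody and dying cells, differed less. C1qb was 271, 269 and 270.1 and 185, 188 and 175 TPM (-0.56, adjusted p = 0.0259), C1qc 337, 352 and 321 and 246, 224 and 198 TPM (-0.60, adjusted p = 0.0390), and C1qa 147, 149 and 134 and 125, 128 and 104 TPM (adjusted p = 0.358, not called). C1qb was no longer called without double-negative 1, 2A or 2B, or CX3CR1-GFP 1, 2A or 2B (adjusted p = 0.0544 to 0.111). C1qc was no longer called without double-negative 1, 2A or 2B, CX3CR1-GFP 1, 2A or 2B, or CCR2-RFP 1 or 2B (adjusted p = 0.0521 to 0.138). C1qc was not called with the sort label as a replicate block (adjusted p = 0.0544). Adjusted p for C1qb and C1qc was 0.163 and 0.214 without the 3 sort 2A libraries. Without the 3 sort 2A libraries 3 complement genes were called lower, and 4 without CX3CR1-GFP 2A. In the first of these fits C6 did not pass the filter and was not tested. Adjusted p for C1qc was 0.0760 with no filter on low values.

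The chemokine genes that fell were Ccl8, Ccl6, Ccl9 and Ccl24. Ccl8, a monocyte attractant made by resident macrophages, was 98.7, 171 and 242 TPM in double-negative libraries and 19.3, 18.1 and 29.6 TPM in CX3CR1-GFP libraries (-2.82, SE 0.49, adjusted p = 0.0135). Ccl6 was 459, 466 and 639.5 and 146, 101 and 199.6 TPM (-1.84, adjusted p = 0.00323) and Ccl9 172, 202 and 249 and 111, 86.1 and 113 TPM (-1.0, adjusted p = 0.0111). CCR2-RFP libraries were the highest of the 3 populations for both of these neighbouring genes on chromosome 11, at 1031, 904 and 1169 TPM for Ccl6 and 373, 386 and 411 TPM for Ccl9. Ccl24, an eosinophil attractant, was 164, 176 and 146 and 82.2, 75.5 and 63.1 TPM (-1.13, adjusted p = 0.00386). On the same chromosome, Ccl3 and Ccl4 thus rose where Ccl6 and Ccl9 fell. Ccl8 was no longer called without double-negative 2A or 2B, or CX3CR1-GFP 2A (adjusted p = 0.0528 to 0.0683). Adjusted p for Ccl9 and Ccl24 was 0.117 and 0.0621 without the 3 sort 2A libraries. Adjusted p for Ccl8, Ccl6 and Ccl9 was 0.143, 0.0503 and 0.0717 with no filter on low values.

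Other large falls were in enzymes and receptors. Ednrb, the endothelin B receptor, was 208, 160.1 and 195 and 32.1, 18.1 and 30.0 TPM (-2.80, SE 0.28, adjusted p = 0.000961), and CCR2-RFP libraries were as low, at 27.6, 16.1 and 33.5 TPM. Hpse, the heparanase that cuts heparan sulfate of the matrix, was 14.5, 21.5 and 13.2 and 0.406, 0.428 and 0.730 TPM (-3.49, SE 0.42, adjusted p = 0.00218). The CX3CR1-GFP libraries were below 1 TPM, so the ratio of the means, 31.4, is imprecise. Clec3b, which encodes the plasminogen-binding lectin tetranectin, was 36.5, 48.6 and 37.4 and 2.64, 5.53 and 4.01 TPM (-3.07, adjusted p = 0.00355). Enpep, an aminopeptidase that cleaves angiotensin II, was 20.0, 27.2 and 15.7 and 3.23, 1.32 and 1.75 TPM (-2.84, adjusted p = 0.00156). Ms4a8a, a tetraspan membrane protein gene, was 13.5, 19.2 and 19.9 and 0.425, 1.13 and 2.97 TPM (-3.00, adjusted p = 0.00118), against 26.1, 24.7 and 26.4 TPM in CCR2-RFP libraries. For Ednrb, Enpep and Clec3b the CX3CR1-GFP and CCR2-RFP levels were not called different, with intervals of -0.55 to 0.69, -0.03 to 1.39 and -0.45 to 1.37 on the log2 scale. Adjusted p for Clec3b was 0.0631 with no filter on low values.

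Lysosomal and iron genes had lower medians in CX3CR1-GFP cells, with few calls. Of 34 cathepsin and lysosomal genes tested 4 fell and 1 rose (median -0.39). Ctsb, the protease cathepsin B, was 565, 532 and 583 and 282, 298 and 321 TPM (-0.90, adjusted p = 0.0101), Ctsd 105, 85.6 and 96.5 and 47.8, 43.2 and 54.2 TPM (-0.97, adjusted p = 0.0272), and Ctsl 48.1, 41.2 and 61.3 and 21.4, 16.8 and 20.0 TPM (-1.31, adjusted p = 0.0257). The fourth was Lamp1, a lysosomal membrane protein, at 187, 180.4 and 206 and 116, 108 and 103 TPM. Gm49369 covers 34.4% of the exon bases of Ctsd on the same strand, so Ctsd reads may be split with it. Of 18 iron and haem genes 3 fell and none rose (median -0.54). Hmox1, which degrades haem, was 93.9, 74.5 and 85.0 and 39.9, 37.6 and 38.4 TPM (-1.10, SE 0.16, adjusted p = 0.00471) and was called in every alternative. Slc40a1, the iron exporter ferroportin, was 33.8, 24.6 and 33.0 and 12, 10.4 and 13 TPM (-1.29, adjusted p = 0.0289), against 1.10, 0.414 and 1.96 TPM in CCR2-RFP libraries. Ftl1, the ferritin light chain, was 663, 623 and 571 and 398, 422 and 375 TPM (-0.63, adjusted p = 0.0381). Ctsb was no longer called without double-negative 1 (adjusted p = 0.0501). Ctsd was no longer called without double-negative 1, 2A or 2B, or CX3CR1-GFP 1 or 2A (adjusted p = 0.0649 to 0.118). Ctsl was no longer called without double-negative 1, 2A or 2B, or CX3CR1-GFP 1, 2A or 2B (adjusted p = 0.0563 to 0.119). Lamp1 was no longer called without double-negative 1, 2A or 2B, or CX3CR1-GFP 2A (adjusted p = 0.0549 to 0.0821). Slc40a1 was no longer called without double-negative 1, 2A or 2B, or CX3CR1-GFP 1, 2A or 2B (adjusted p = 0.0544 to 0.126). Ftl1 was no longer called without double-negative 1, 2A or 2B, CX3CR1-GFP 1, 2A or 2B, or CCR2-RFP 1 (adjusted p = 0.0659 to 0.163). Ftl1 was not called with the sort label as a replicate block (adjusted p = 0.0590). Adjusted p for Ctsb, Ctsd, Lamp1 and Ftl1 was 0.0541, 0.0975, 0.0760 and 0.146 without the 3 sort 2A libraries. Of 20 lipid-associated macrophage genes 1 rose, the tetraspanin gene Cd9, and 2 fell, Ctsb and Ctsl (median -0.22). Cd9 was 2.59, 2.95 and 3.72 and 6.65, 5.92 and 7.57 TPM (0.92, adjusted p = 0.0348). Cd9 was no longer called without double-negative 1, 2A or 2B, CX3CR1-GFP 1, 2A or 2B, or CCR2-RFP 1 (adjusted p = 0.0553 to 0.145). Cd9 was not called with the sort label as a replicate block (adjusted p = 0.0682). Adjusted p for Cd9 was 0.156 without the 3 sort 2A libraries. Adjusted p for Ctsb, Ctsd, Ctsl, Lamp1, Slc40a1, Ftl1 and Cd9 was 0.0543, 0.141, 0.159, 0.0760, 0.154, 0.112 and 0.0950 with no filter on low values.

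Genes of the type I interferon response were lower where they were called, 7 of 30 tested, with none higher (median -0.50). The count was 1 without the 3 sort 2A libraries, where Ifit1 did not pass the filter and was not tested, and 5 without CX3CR1-GFP 2A. Ifi27l2a, a mitochondrial protein gene, was 60.8, 59.4 and 84.9 TPM in double-negative libraries and 21.5, 34.1 and 16.2 TPM in CX3CR1-GFP libraries (-1.52, adjusted p = 0.0125). Irf7, the transcription factor that amplifies interferon production, was 2.63, 4.35 and 3.72 and 0.404, 0.270 and 0.679 TPM (-1.65, SE 0.25, adjusted p = 0.00646). Bst2, which tethers enveloped viruses to the cell, was 12.7, 13.7 and 14.5 and 5.43, 4.14 and 6.35 TPM (-1.23, adjusted p = 0.0125), and Zbp1, a nucleic acid sensor, 5.63, 4.38 and 6.12 and 1.68, 2.14 and 1.71 TPM (-1.16, adjusted p = 0.0133). Ifit1, which binds viral RNA, was 3.07, 2.89 and 2.89 and 0.895, 0.993 and 0.873 TPM (-1.04, adjusted p = 0.0135). Irf7 and Ifit1 were below 1 TPM in all CX3CR1-GFP libraries. Ifit1 was so in CCR2-RFP libraries too and passed the filter only through double-negative libraries, with adjusted p = 0.0205 when no filter was set. Ifi27l2a was no longer called without double-negative 2B (adjusted p = 0.0610). Bst2 was no longer called without double-negative 2A or 2B (adjusted p = 0.0594 to 0.0597). Zbp1 was no longer called without double-negative 1 or 2B (adjusted p = 0.0647 to 0.0679). Adjusted p for Irf7, Bst2 and Zbp1 was 0.0744, 0.104 and 0.0656 without the 3 sort 2A libraries. Cxcl10, which interferon can also induce but which is not in that list, rose, as given with the chemokines. Adjusted p for Ifi27l2a, Irf7 and Bst2 was 0.112, 0.0503 and 0.0672 with no filter on low values.

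Uptake receptors moved in both directions. Of 27 scavenger and uptake receptor genes 5 rose (Axl, Itgb5, Itgav, Clec7a and Clec12a) and 3 fell (Colec12, Timd4 and Pros1), with a median of -0.07. Clec7a, the beta-glucan receptor dectin-1, was 7.36, 6.95 and 8.24 and 16.6, 24.1 and 18.0 TPM (1.26, adjusted p = 0.00717). Clec12a, an inhibitory receptor for uric acid crystals, was 8.90, 11.9 and 14.7 and 31.1, 46.1 and 23.2 TPM (1.40, adjusted p = 0.0185), and was 8.43, 8.66 and 11.3 TPM in CCR2-RFP libraries (CX3CR1-GFP minus CCR2-RFP 1.68, adjusted p = 0.000919). Pros1, which bridges phosphatidylserine to Mertk, was 31.7, 31.2 and 34.7 and 17.8, 11.4 and 12.1 TPM (-1.21, adjusted p = 0.00519). Of 7 Fc receptor genes 2 fell, Fcgrt and Fcgr2b, the inhibitory IgG receptor, at 143, 149.7 and 155 against 85.8, 93.3 and 85.2 TPM (-0.76, adjusted p = 0.00841). Fcgr1, the high-affinity IgG receptor, was 11.8, 11.1 and 13.5 and 11.9, 14.7 and 10.5 TPM (adjusted p = 0.991). Of 20 integrin and adhesion genes 3 rose (Itgav, Itgb5 and Alcam) and 1 fell, Itgb2, the shared chain of the CD11b integrin, at 19.5, 22.8 and 21.7 against 12.5, 12.7 and 14.9 TPM (-0.64, adjusted p = 0.0428), with a median of 0.40. Clec12a was no longer called without double-negative 1 or 2A, or CX3CR1-GFP 1 or 2A (adjusted p = 0.0513 to 0.0867). Itgb2 was no longer called without double-negative 1, 2A or 2B, CX3CR1-GFP 1 or 2A, or CCR2-RFP 1, 2A or 2B (adjusted p = 0.0612 to 0.154). Itgb2 was not called with the sort label as a replicate block (adjusted p = 0.0590). Adjusted p for Clec7a, Clec12a, Pros1, Fcgr2b and Itgb2 was 0.0865, 0.142, 0.0739, 0.0744 and 0.28 without the 3 sort 2A libraries. Alcam, an adhesion molecule, was 2.45, 2.16 and 1.71 and 3.70, 6.03 and 5.47 TPM (0.95, adjusted p = 0.0310). Alcam was no longer called without double-negative 1, 2A or 2B, CX3CR1-GFP 2A or 2B, or CCR2-RFP 1 or 2B (adjusted p = 0.0509 to 0.125). Alcam was not called with the sort label as a replicate block (adjusted p = 0.0502). Adjusted p for Alcam was 0.213 without the 3 sort 2A libraries. Adjusted p for Clec12a, Itgb2 and Alcam was 0.131, 0.0549 and 0.0995 with no filter on low values.

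In the lists of costimulation and chemoattractant receptor genes the called members had all risen. Of 16 costimulation and checkpoint genes 3 rose and none fell (Icosl, Cd276 and Lair1; median 0.10). Icosl, the ligand of the T cell receptor ICOS, was 4.12, 2.86 and 2.63 and 10.1, 9.60 and 6.12 TPM (1.18, adjusted p = 0.0190), while Cd86 was 45.3, 38.4 and 46.9 and 45.1, 37.8 and 49.9 TPM (adjusted p = 0.972). Cd276 was 0.133, 0.145 and 0.258 and 1.37, 2.54 and 1.02 TPM (1.13, adjusted p = 0.0259), below 1 TPM in every library outside CX3CR1-GFP. Of 15 chemoattractant receptor genes 2 rose and none fell (median -0.02). Ccrl2, a chemerin-binding receptor that does not signal, was 1.95, 2.19 and 1.26 and 7.16, 9.07 and 4.97 TPM (1.51, adjusted p = 0.00990), and was 23.1, 35.4 and 29.6 TPM in CCR2-RFP libraries (CX3CR1-GFP minus CCR2-RFP -1.92, adjusted p = 0.000275). Lpar6, a lysophosphatidic acid receptor, was 5.65, 8.67 and 9.07 and 24.4, 38.3 and 16.9 TPM (1.59, adjusted p = 0.0236), and was 2.50, 3.81 and 1.82 TPM in CCR2-RFP libraries (CX3CR1-GFP minus CCR2-RFP 2.85, adjusted p = 0.000101). Lpar6 lies within Rb1, a gene of the other strand, which averaged 15.8 TPM and overlaps 7.6% of its exon bases. Icosl was no longer called without double-negative 2A or 2B, or CX3CR1-GFP 1 or 2A (adjusted p = 0.0651 to 0.0859). Cd276 was no longer called without double-negative 1, 2A or 2B, or CCR2-RFP 1 (adjusted p = 0.0528 to 0.109). Lpar6 was no longer called without double-negative 1, 2A or 2B, or CX3CR1-GFP 1 or 2A (adjusted p = 0.0646 to 0.106). Adjusted p for Icosl, Lpar6 and Ccrl2 was 0.187, 0.0964 and 0.0642 without the 3 sort 2A libraries. Adjusted p for Icosl, Cd276, Ccrl2 and Lpar6 was 0.0985, 0.107, 0.0760 and 0.157 with no filter on low values.

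The series asks which receptors for extracellular nucleotides each population expresses. None of the 8 P2 receptor genes tested was called between CX3CR1-GFP and double-negative cells, in this fit or in any alternative that tested it. Over all genes tested 2.77% were called, so no call among 8 genes says little by itself. Their median difference was -0.18. P2ry1 and P2ry10 were tested in 16 of the 23 alternatives, P2ry14 in 22 and the other 5 in all. P2ry12, an ADP receptor that guides microglia to injury, was 34.6, 32.9 and 31.3 TPM in double-negative libraries and 28.8, 28.4 and 30.0 TPM in CX3CR1-GFP libraries (-0.17, 95% interval -0.63 to 0.29, adjusted p = 0.757). In CCR2-RFP libraries it was 4.81, 2.26 and 4.19 TPM, and the difference from CX3CR1-GFP was 2.70 (adjusted p = 1.38e-05). P2ry13, a further ADP receptor, was 19.9, 22.0 and 16.6 and 19.5, 14 and 14.7 TPM (-0.27, interval -1.03 to 0.48). P2ry6, the UDP receptor, was 32.7, 25.8 and 24.6 and 27.4, 32.5 and 25.5 TPM (0.04, interval -0.39 to 0.47), and P2rx7, the ATP-gated channel upstream of the inflammasome, 39.1, 34.1 and 33.6 and 38.8, 23.0 and 33.9 TPM (-0.18, interval -0.64 to 0.27). The P2ry12 libraries of the 2 populations did not overlap, while those of P2ry13, P2ry6 and P2rx7 did. Differences within these intervals could not be told from none. All of P2ry13, P2ry6 and P2rx7 were higher than in CCR2-RFP cells, by 3.17, 2.05 and 1.82.

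P2rx4 and P2ry14 came nearest to a difference. P2rx4, an ATP-gated channel found in lysosomes, was 29.6, 27.5 and 28.5 TPM in double-negative libraries, 17.6, 23.0 and 19.8 TPM in CX3CR1-GFP and 17.5, 19.6 and 21.2 TPM in CCR2-RFP libraries (-0.49, interval -0.82 to -0.16, adjusted p = 0.131). P2ry14, the UDP-glucose receptor, was 2.36, 1.71 and 2.86 and 0.592, 1.33 and 1.44 TPM (-0.65, interval -1.16 to -0.14, adjusted p = 0.199). Their libraries did not overlap, as for P2ry12 and 21.1% of all genes tested, and their unadjusted intervals leave out 0. P2ry1 and P2ry10 were at most 0.600 and 0.324 TPM in the 6 libraries, and 7 further members (P2ry2, P2ry4, P2rx1, P2rx2, P2rx3, P2rx5 and P2rx6) were too low to test. Of 6 adenosine receptor and ectoenzyme genes tested 1 fell, Cd38, which hydrolyses NAD, at 17.3, 23.1 and 17.6 against 7.35, 5.48 and 8.80 TPM (-1.32, adjusted p = 0.0197), and 2.30, 1.03 and 1.01 TPM in CCR2-RFP libraries. Cd38 was no longer called without double-negative 1, 2A or 2B, or CX3CR1-GFP 1 or 2A (adjusted p = 0.0559 to 0.0946). Adjusted p for Cd38 was 0.177 without the 3 sort 2A libraries. Entpd1, the ATP and ADP hydrolase CD39, was 18.1, 18.3 and 20.0 and 17.5, 14.2 and 17.4 TPM (adjusted p = 0.613). Adjusted p for Cd38 was 0.114 with no filter on low values.

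Of 31 macrophage transcription factor genes 1 was called (3.2%, near the 2.77% of all genes tested). It was Runx1, at 18.6, 18.0 and 16.7 against 25.3, 27.7 and 29.8 TPM (0.61, adjusted p = 0.0428, with a median of the list of 0.11). Runx1 was no longer called without double-negative 1, 2A or 2B, CX3CR1-GFP 1, 2A or 2B, or CCR2-RFP 1, 2A or 2B (adjusted p = 0.0592 to 0.150). Runx1 was not called with the sort label as a replicate block (adjusted p = 0.0808). Adjusted p for Runx1 was 0.228 without the 3 sort 2A libraries. Spi1, which encodes PU.1, was 28.6, 31.6 and 25.8 and 23.6, 29.0 and 25.0 TPM (95% interval -0.47 to 0.19). Apoe, a lipid carrier, was 1533, 1463 and 1481 and 1413, 1185 and 1629 TPM (interval -0.51 to 0.32), and 376, 233 and 275 TPM in CCR2-RFP libraries. The selenium carrier Selenop fell, at 1439, 1353 and 1677 against 832, 713 and 796 TPM (-0.93, adjusted p = 0.0314). Selenop was no longer called without double-negative 1, 2A or 2B, CX3CR1-GFP 1, 2A or 2B, or CCR2-RFP 2B (adjusted p = 0.0523 to 0.132). Adjusted p for Selenop was 0.0574 without the 3 sort 2A libraries. Of 24 cell cycle genes none was called (median 0.17). Adjusted p for Selenop was 0.168 with no filter on low values.

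No listed gene of monocytes or of dendritic cells, which also express MHC class II, was called higher in CX3CR1-GFP cells. Only 1.16% of all genes tested were called higher, so lists of this size would often hold none. None of 18 monocyte genes was called (median -0.26). Lyz2 was 1268, 1129 and 1503 and 1087, 1179 and 975 TPM (adjusted p = 0.488). Lyz1, a lysozyme gene abundant in CCR2-RFP cells, was 18.2, 18.1 and 55.0 TPM in double-negative libraries, 7.56, 3.24 and 10.3 TPM in CX3CR1-GFP and 1043, 916 and 1179 TPM in CCR2-RFP libraries (-1.88, adjusted p = 0.0524). With the sort label as a replicate block Lyz1 was called lower, at adjusted p = 0.0126. Lyz1 and Lyz2 are close copies that may share reads. Ear2 was 2.28, 3.31 and 16.6, 0.438, 2.46 and 8.64 and 273, 285 and 448 TPM in the same order, and Fn1, fibronectin, 42.2, 76.4 and 63.5, 6.73, 33.2 and 65.3 and 1116, 1058 and 1368 TPM. CX3CR1-GFP means were thus 0.672% of the CCR2-RFP mean for Lyz1, 1.15% for Ear2 and 2.97% for Fn1. Of 19 dendritic cell genes 2 fell, Cd209a and Clec10a, and none rose (median -0.03). Zbtb46, a transcription factor of conventional dendritic cells, was 2.35, 1.95 and 2.98 and 2.62, 1.26 and 2.57 TPM (adjusted p = 0.845), and Flt3, their growth factor receptor, 0.0252, 0.0616 and 0.162 and 0.179, 0.800 and 1.08 TPM (adjusted p = 0.451). Mitochondrially encoded mRNA, read as a sign of RNA quality, summed to 12898 to 19514 TPM in double-negative and 8914 to 15396 TPM in CX3CR1-GFP libraries, with none of 6 genes called (median -0.40).

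Several list counts were smaller without the 3 sort 2A libraries. No member was then called in the lists of microglia, macrophage transcription factor, Toll-like receptor, NF-kB, chemoattractant receptor, adenosine, and matrix genes. That fit could not test Olfml3 of the microglia list, Mmp13 of the matrix list or Cd276 of the costimulation list. These need all 3 CX3CR1-GFP libraries to pass the filter, so their absence is no lost call. Of the MHC class II loading genes 2 were higher, of the uptake receptors 2 were higher and none lower, and of the chemokine ligands 2 were higher and 2 lower. Cytokine, costimulation and adhesion genes had 1 higher and none lower each. Lysosomal, lipid-associated and Fc receptor genes had 1 lower each, and alternative activation and iron genes 2 lower each.

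**Figure D5:**
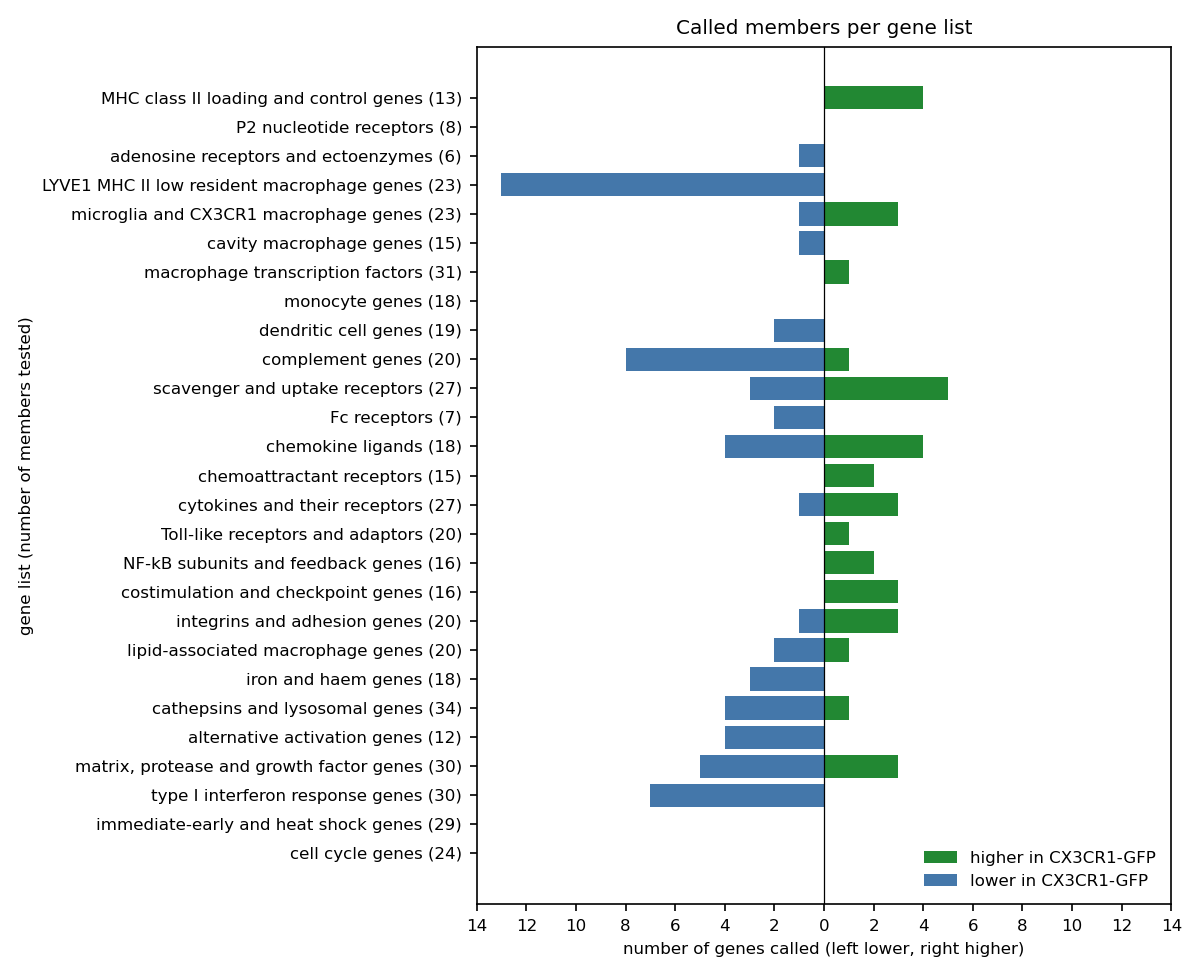
Number of genes called lower (bars to the left) and higher (bars to the right) in CX3CR1-GFP against double-negative cells for each of the 27 lists of pathways and macrophage types, with the number of members tested in brackets. The LYVE1 list has 13 of 23 lower, and 4 lists, the P2 receptors among them, have none in either direction.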

How the data were processed

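RNA of phagocytes sorted from the mouse peritoneal wall was measured in 9 libraries, 3 per population, made per the labels' protocols from 1 ng of total RNA with the NuGEN Ovation SoLo kit and read as paired reads of 75 bases. The deposited values are TPM per gene symbol, made by the authors with bcl2fastq 2.18, cutadapt 1.8.3 and Salmon 0.11.3 on mm10, per the submitters' processing notes. Not given in the sources used here are the annotation, the strand of counting and how transcripts were summed to genes. The table lists 28764 symbols, 24700 of which (85.9%) are in GENCODE M21, used here for coordinates (GRCm38, the assembly of mm10, 1-based). Promoter windows come from a RefSeq table of GRCm38.p6. TPM holds no counts, so depth is unknown.

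The filter on low values asked for 1 TPM in 3 of 9 libraries and kept 10136 genes. log2(TPM + 1), which understates changes of low genes, was fitted in R 4.3.3 with limma 3.58.1 (lmFit with a mean per population over all 9 libraries, eBayes with an intensity trend), two-sided, with p-values adjusted over all of these by Benjamini-Hochberg and calls at 0.05. The fit was also run on simulated data with 200 genes changed and libraries drawn independently, without a sort effect. No result here rests on that run. Intervals are 95% and unadjusted. The 19 planned and 4 added alternatives are described below with their effect.

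The series design states 3 mice sorted as 3 replicates per population, and each sort label (1, 2A or 2B) was taken to mark 1 animal, which pairs the populations. Across genes, deviations from the population means of double-negative and CX3CR1-GFP libraries of the same sort correlated at 0.0703, 0.0506 and 0.0486. Those of different sorts correlated at -0.0712 to 0.0094. The main fit does not use the pairing, and the replicate block does. P-values measure the spread between these libraries.

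The comparison and the 40 gene lists, some of which share genes, were chosen with earlier results of these data known. The rule named all gate and P2 receptor genes. It also named the 12 largest rises and falls among called, non-overlapping genes of at least 10 TPM in the higher population, without predicted, ribosomal protein and small RNA genes. From each other list it took the called members of smallest p, at most 4, or, with none called, the 2 of highest mean. Genes beyond the rule, such as Timd4, Folr2, Cd93, Pmepa1, Col14a1, Nlrp3, Ildr2, Lyz1, Apoe, Selenop, Gpr34 and Csf1r, were chosen after their values were seen. A few genes that the lists hold are not reported here.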

Additional observations from a re-analysis of the deposited data

How the results depend on the processing

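The comparison gave 281 genes, 118 higher and 163 lower, and 23 alternatives were run. The count was within 1.5 times of this, with 196 to 291 genes, for other pseudocounts (0.1 and 5), a 5 TPM filter, median-of-ratios and quantile scaling, rescaling without Siglece, mitochondrial and ribosomal genes, no intensity trend, the 2 populations alone, and array weights and a block with median-of-ratios scaling, both added after seeing the data. With no filter on low values it was 135 (65 higher, 70 lower), with more genes tested. Leaving out 1 library gave 126 to 259 genes, 57 to 117 higher and 62 to 155 lower. Without the sort 2A libraries, added after seeing the data, it was 88 (33 and 55), and CX3CR1-GFP against CCR2-RFP gave 1767 genes and CCR2-RFP against double-negative 1652. The replicate block, which takes the sort label as the animal, gave 256 (109 and 147), 228 of them shared, and ended 8 named calls and added Lyz1. Together with only the 2 populations, an alternative added after seeing the data, the block gave 142 (59 and 83). The share of higher genes was 42.0% as deposited and 37.5% (without the sort 2A libraries) to 55.2% (rescaled). Of 96 called genes taken by the naming rule or chosen beside it, 31 were called in every alternative that tested them, 58 in each fit without 1 library that tested them, 44 lost the call without the sort 2A libraries and 49 with no filter. Of them, 7 (C6, Cd276, Cd79b, Cx3cr1, Ifit1, Mmp13 and Olfml3) passed the filter only through the population in which they are high and were tested in 18 or 19 of the 23 alternatives. No named call changed direction in any alternative. The cause of these shifts was not tested, beyond the fewer libraries or the other number of genes tested. A difference in TPM cannot be given a counting error here.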

Other observations

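Besides the lists, the levels of some genes known to act together are set side by side here, all chosen after their values were seen. Axl rose (log2 fold change 2.90), while Gas6, its bridging protein, was not called (-0.84, adjusted p = 0.129). The Axl relative Mertk was not called (-0.28, adjusted p = 0.495), and Pros1, which bridges to Mertk, fell (-1.21). Il1b rose with Nlrp3 (2.61 and 2.11), while P2rx7, the ATP channel known to trigger that inflammasome, was 39.1, 34.1 and 33.6 TPM in double-negative libraries and 38.8, 23.0 and 33.9 TPM in CX3CR1-GFP libraries, with no call (-0.18, adjusted p = 0.746). In CCR2-RFP cells Il1b was higher still, at 191, 265 and 225 TPM, and P2rx7 lower, at 9.63, 6.81 and 8.17 TPM. Cd83 rose (0.99), and Cd86, a costimulatory partner on mature presenting cells, was not called (0.02, adjusted p = 0.972). Cd80 was 4.28, 4.52 and 4.95 and 7.54, 8.97 and 7.04 TPM (0.66, adjusted p = 0.0961), with no overlap between the libraries. Whether these pairs differ from each other was not tested.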
